A study of Mus musculus with 6 samples.

Results

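Collagens, the glycoproteins and proteoglycans that lie between them, the enzymes that crosslink and cut them, and the PDGF receptors of the cells that make them were followed as a set of 33 genes in tumors from Eμ-Myc mice with and without miR-146a. The members were picked by name, with earlier results of these data known, and all 33 were found among the 38293 genes measured. Eμ-Myc mice carry a c-Myc transgene under the immunoglobulin heavy chain enhancer, which drives it in B-lineage cells, and they develop B-cell tumors. The tumors had been made into single cell suspensions and frozen in Trizol, so the libraries hold whatever supporting cells came through with the tumor cells. All 6 mice were C57BL6 and carried the Myc transgene. The 4 miR-146a-sufficient tumors (miR-146a+/+) came from mice labelled male, with 2 tumors from neck nodes at ages of 18 and 16 weeks (sufficient tumors 1 and 2) and 2 from the thymus at 10 weeks (sufficient tumors 3 and 4). Both miR-146a-deficient tumors (miR-146a-/-, a germline deletion) arose in the thymus, in mice aged 11 and 10 weeks whose label is female. Each tumor is a separate animal, and the labels name 2 technical replicates per tumor, for which a single value is given.

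Fibrillar collagens (types I, III and V) are triple helices that give tissue its tensile strength. Type IV collagen, laminin and nidogen form the sheet-like basement membrane under vessels and epithelium, and type VI collagen forms beaded filaments at cell surfaces. In lymph node and thymus these proteins are made mainly by fibroblasts, reticular cells, pericytes and endothelium, and a few of them also by macrophages, while lymphocytes make little collagen. PDGF receptors mark and drive the growth of mesenchymal cells. In RNA of a whole suspension, fewer cells of a type and less RNA per cell cannot be told apart.

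Levels are given as RPKM, a read density per kilobase adjusted for sequencing depth. The header of the table names no unit and the values were read as RPKM, so comparisons of levels between genes rest on that reading. No counts are given, so the depth behind each value is unknown and the spread between tumors is the measure of precision. RPKM summed over all genes to between 675516 and 788919 in the sufficient tumors, to 714062 in deficient tumor 2 and to 692853 in deficient tumor 1 once Xist, at 1240070 RPKM there, was left out. Xist was at 1585 to 2203 RPKM in the sufficient tumors and at 1819 in deficient tumor 2. The Xist value of deficient tumor 1 exceeds the sum of all its other genes and is hard to square with RPKM as defined. Its origin was not tested, so the unit stays unsettled. The labelled sex of deficient tumor 2 is in doubt, since it held 24.6 RPKM of the Y-linked Ddx3y against 0.130 in deficient tumor 1 and 17.9 to 23.0 in the sufficient tumors. The counts over all tumors in the filtered fit are therefore also given without it. The B-cell marker list summed to 1649 to 3183 RPKM over the 6 tumors, which fits the labelled tumor type. Markers of thymic epithelium summed to 3.94 to 13.4 RPKM in the thymic tumors and to 6.34 and 21.9 in the neck node tumors. Of the defining genes, Foxn1 was at 0 in 5 tumors and at 0.00600 RPKM in deficient tumor 1.

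Several of the genes sit side by side in the genome, and the type IV pair shares a start region. Col4a1 and Col4a2 encode the main chains of basement membrane collagen and lie head to head on chromosome 8. Their GENCODE annotations overlap by 22 bases. The RefSeq windows around their starts (GRCm38.p6, 250 bases before to 50 after each start) share 78 bases. The windows of Col4a1 (chr8:11312777-11313076, minus strand) and Col4a2 (chr8:11312555-11312854, plus strand) are printed because the levels of the pair are compared below, with the shared stretch in capitals.
Col4a1: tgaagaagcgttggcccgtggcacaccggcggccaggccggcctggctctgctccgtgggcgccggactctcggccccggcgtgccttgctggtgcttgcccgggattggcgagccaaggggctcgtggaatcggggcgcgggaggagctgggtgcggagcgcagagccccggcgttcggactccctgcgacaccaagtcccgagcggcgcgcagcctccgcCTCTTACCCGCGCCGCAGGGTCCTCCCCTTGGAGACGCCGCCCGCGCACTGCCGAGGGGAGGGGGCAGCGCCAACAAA
Col4a2: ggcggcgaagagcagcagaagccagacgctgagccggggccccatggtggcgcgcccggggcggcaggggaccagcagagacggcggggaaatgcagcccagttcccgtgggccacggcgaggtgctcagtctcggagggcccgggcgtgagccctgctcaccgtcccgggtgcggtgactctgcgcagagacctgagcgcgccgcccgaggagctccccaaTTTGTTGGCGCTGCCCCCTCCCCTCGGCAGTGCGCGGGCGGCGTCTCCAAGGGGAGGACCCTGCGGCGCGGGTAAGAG
The windows of the fibrillar genes Col3a1 (chr1:45311288-45311587, plus strand) and Col1a2 (chr6:4505368-4505667, plus strand) are printed as those of the most abundant collagen among the members and of the type I chain whose window the RefSeq table holds, and that of Nid1 (chr13:13437352-13437651, plus strand) because Nid1 had the lowest p between genotypes among the 13 members that passed the filter on low values. Capitals mark matches, on either strand, to the TATA box TATAAA, the CCAAT box, the GC box GGGCGG, the EGR1 motif GCGGGGGCG, the AP-1 motif TGANTCA and the E-box CACGTG. The palindromic E-box and AP-1 motif read alike on both strands, and EGR1 and GC boxes share letters but none of the matches shown overlap.
Col3a1: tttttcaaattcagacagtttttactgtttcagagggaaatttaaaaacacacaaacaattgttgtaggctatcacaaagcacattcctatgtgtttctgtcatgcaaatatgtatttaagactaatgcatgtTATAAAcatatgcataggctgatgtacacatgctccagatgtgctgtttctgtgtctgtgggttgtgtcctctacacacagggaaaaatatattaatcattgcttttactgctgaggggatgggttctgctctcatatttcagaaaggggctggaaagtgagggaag
Col1a2: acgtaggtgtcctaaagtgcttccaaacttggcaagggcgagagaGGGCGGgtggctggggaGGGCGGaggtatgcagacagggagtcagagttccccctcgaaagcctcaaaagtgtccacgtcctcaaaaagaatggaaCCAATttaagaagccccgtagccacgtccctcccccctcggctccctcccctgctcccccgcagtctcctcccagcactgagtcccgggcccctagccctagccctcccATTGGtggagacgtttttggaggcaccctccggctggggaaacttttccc
Nid1: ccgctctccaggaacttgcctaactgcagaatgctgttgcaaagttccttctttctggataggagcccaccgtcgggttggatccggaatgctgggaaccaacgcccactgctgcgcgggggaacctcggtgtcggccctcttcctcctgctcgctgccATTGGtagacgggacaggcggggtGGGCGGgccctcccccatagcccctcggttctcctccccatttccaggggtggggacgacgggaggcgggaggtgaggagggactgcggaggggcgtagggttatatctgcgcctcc
Col3a1 held the only match to TATAAA among these 3, starting 117 bases before its start, and no GGGCGG. Its window was 37.7% G and C, against 74.0% in that of Col4a1 and a median of 52.7% over all windows. Of the 33 members, 22 had a window in the table, 4 of them with 2 windows, which makes 26. GGGCGG, the GC box, was in 16 of the 26 windows and in 35.7% of all 32851 windows. CCAAT was in 10 of 26 against 37.4%, TATAAA in 2 against 13.6%, and GCGGGGGCG, the motif of EGR1, in 3 (Fbln1, Lamb1 and Mmp14) against 2.91%. TGANTCA was in 1 against 7.81%, and CACGTG was in 2, both of Fbln1, against 7.15%. These are matches of letters in the window, and binding was not measured.

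The 33 genes were low in every tumor. Their summed RPKM was 17.5 and 28.8 in the neck node tumors, 18.0 and 42.5 in the sufficient thymic tumors, and 34.6 and 58.3 in the deficient tumors. This was 0.00229% to 0.00819% of all RPKM without Xist. The highest sum was in deficient tumor 2, sufficient tumor 4 held the next highest, and deficient tumor 1 lay between the sufficient tumors. Across tumors Fn1, Col3a1, Nid2, Lamc1, Sparc, Dcn, Mmp14 and Timp2 each exceeded 4 RPKM in at least 1 tumor, while 20 members stayed under the level used for testing, which was 0.5 RPKM or more in 2 or more tumors.

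**Figure D1:**
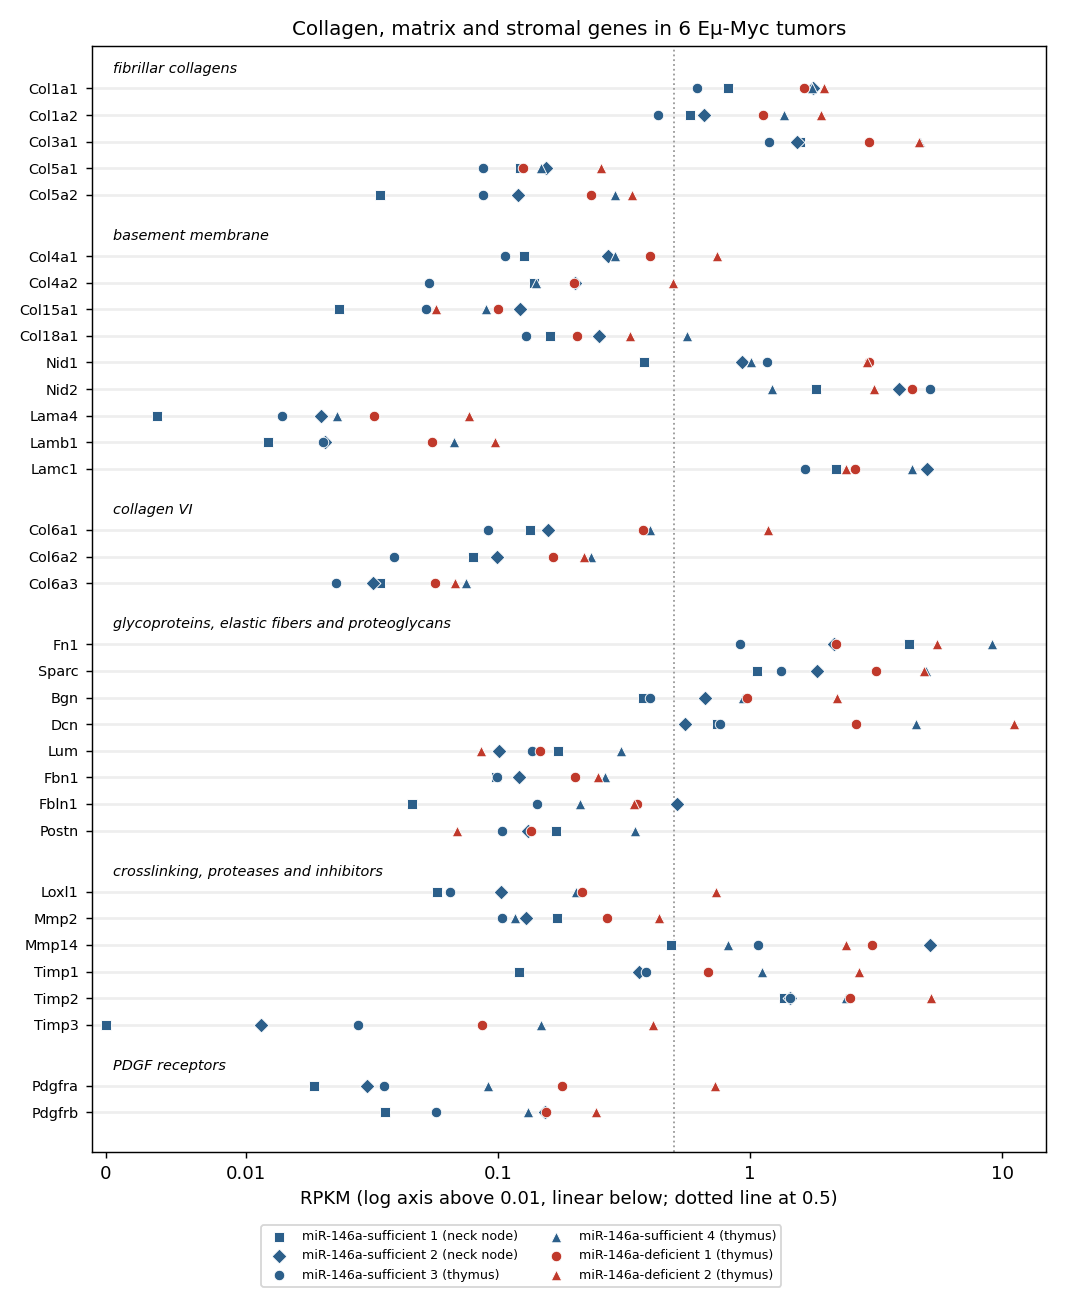
RPKM of the 33 members in the 6 tumors, 1 point per tumor, on an axis that is logarithmic above 0.01 and linear below. Blue points are the 4 miR-146a-sufficient tumors and red points the 2 deficient tumors, and sufficient tumor 4 (blue triangle) lies among or above the red points in many rows. The dotted line marks 0.5 RPKM, a level that 20 members did not reach in 2 tumors.

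The genotypes were compared with limma on log2(RPKM + 1) over all genes, with Benjamini-Hochberg adjusted p-values, and no member passed an adjusted p of 0.05. Of 12751 genes tested in all 6 tumors 8 passed (0.0627%), and of the 13 members tested 0 did, the lowest adjusted p being 0.799 for Nid1. At an unadjusted p under 0.05, 4 members were higher in the deficient tumors (Nid1, Timp2, Dcn and Bgn) and 0 lower, where 2.88% of tested genes were higher. The count was 1 without deficient tumor 2 (0.971% of tested genes), 1 without sufficient tumor 1 (2.35%), 1 without sufficient tumor 3 (2.05%), 2 without sufficient tumor 2 (4.24%) and 8 without sufficient tumor 4 (2.97%). The filter keeps a low gene only if some tumors are high, so the count of 4 is not a measure of the whole set. Without a filter, the same limma fit had 8 of 33 members higher at an unadjusted p under 0.05 (Col4a1, Nid1, Lama4, Col6a1, Bgn, Loxl1, Mmp2 and Pdgfra) and 0 past the adjusted threshold, with 3.55% of 21369 genes higher. Both deficient tumors lay above all 4 sufficient tumors in 9 members (Col4a1, Nid1, Lama4, Bgn, Loxl1, Mmp2, Timp2, Pdgfra and Pdgfrb), against 8.9% of genes above 0 in any tumor. The members are not independent of each other. Without deficient tumor 2 the count of such members was also 9 (16.3% of genes), without deficient tumor 1 it was 19 (36.8% of genes), and without sufficient tumor 4 it was 21 (14.2% of genes).

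The log2 fold change was positive in 30 of 33 members, with a median of 0.25, and in 27, with a median of 0.14, without deficient tumor 2. Over genes above 0 in any tumor 63.4% were positive and the median was 0.03. Of the 13 tested members 12 were positive, with a median of 0.66, and over all tested genes 67.6% were positive, with a median of 0.13. The filter favors a rise in Timp1, which would not have passed it on the sufficient tumors alone. The scale uses log2(RPKM + 1), which understates the change of low genes. Median-ratio scaling moved the median of all tested genes to -0.01, with 48.0% of them positive. Of the 33 members 28 then stayed positive, with a median of 0.20. Col1a1, Col1a2, Col3a1, Sparc, Timp1, Mmp14 and Nid2, which were also tested, had intervals that spanned 0, as did Fn1 and Lamc1.

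**Figure D2:**
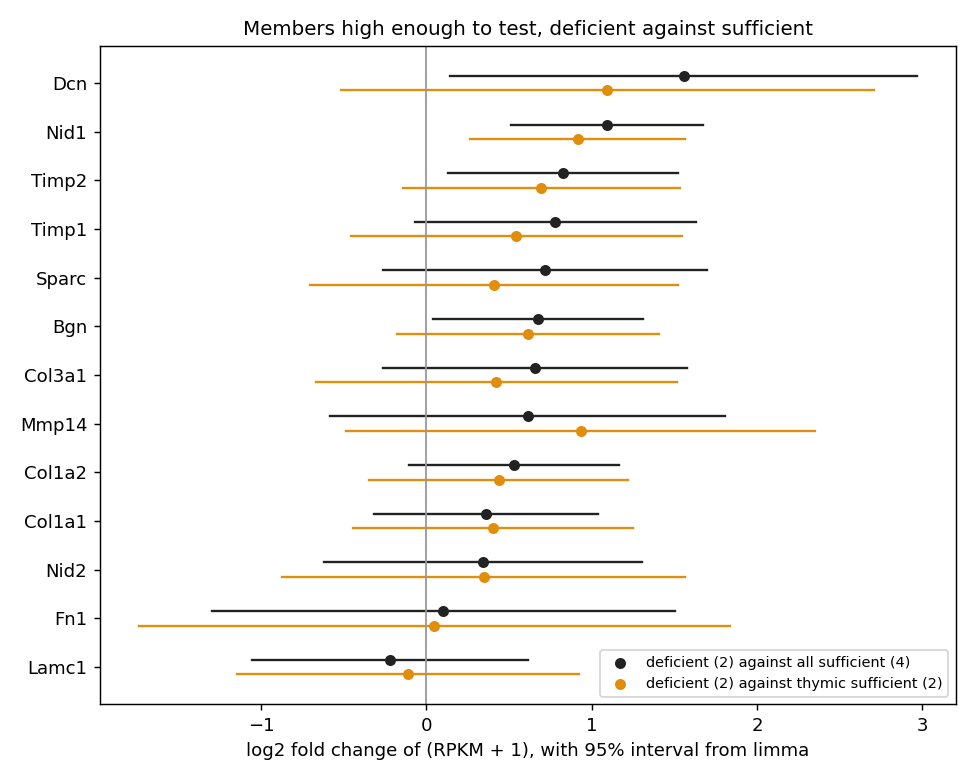
Log2 fold changes of the 13 members that were tested, with their 95% intervals from limma, for deficient against all sufficient tumors (black) and against the 2 sufficient thymic tumors (orange). The black intervals of Dcn, Nid1, Timp2 and Bgn lie above 0, only Nid1 does so among the orange ones, and no member passed the adjusted threshold.

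Tumor site was partly shared between the genotypes, so the deficient tumors were also set against the 2 sufficient thymic tumors. In that contrast 3 of 12751 genes passed the adjusted threshold (0.0235%) and 0 of the 13 members. Nid1 was the single one of these 13 higher at an unadjusted p under 0.05, where 6.78% of tested genes were higher. Without a filter Nid1, Mmp2 and Col4a1 were, 3 of 33 members against 5.38% of 21369 genes. Both deficient tumors exceeded both sufficient thymic tumors in 12 of 33 members, against 26.9% of genes. With 2 tumors against 2, an exact two-sided permutation test cannot give a p below 0.333, and with 4 against 2 it cannot go below 0.133. The 2 contrasts share the deficient tumors and are not independent of each other.

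The sufficient thymic tumors, alike in genotype, site, labelled sex and age, differed from each other in most members. Sufficient tumor 4 exceeded sufficient tumor 3 in 30 of 33 members, with a median ratio of 2.75. Of genes above 0 in any tumor 60.2% were higher in it, with a median ratio of 1.19. Deficient tumor 1 exceeded sufficient tumor 4 in 14 of 33 members, against 45.5% of genes above 0 in any tumor, and sufficient tumor 3 in 32, against 63.0%. Deficient tumor 2 was the highest of the 6 tumors in 18 members, and sufficient tumor 4 in 9. Among genes above 0 in any tumor the shares were 34.8% and 18.6%.

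Neck node and thymic tumors were compared within the sufficient group, where site and age cannot be told apart. Of 12255 genes tested 19 passed (0.155%), with 0 of the 12 members tested, and the lowest adjusted p of a member was 0.679, for Dcn. At an unadjusted p under 0.05, 0 members were higher in the neck nodes, against 5.21% of tested genes, and 0 were lower. Both neck node tumors lay below both thymic tumors in 5 members (Nid1, Dcn, Timp1, Timp3 and Pdgfra), against 11.1% of genes, and above them in 1, Mmp2, against 21.6%. The median log2 fold change of the 33 members, neck node against thymus, was -0.07, and it was 0.06 without sufficient tumor 4, so its sign rested on that tumor. Of the 33 members 10 were positive, against 56.2% of genes above 0 in any tumor, whose median was 0.01. All tested genes had a median of 0.10. The median of all genes without sufficient tumor 4 is not given here.

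Of the fibrillar collagens, Col3a1, the chain of type III collagen that runs through the reticular fibers of lymphoid tissue, was the most abundant. It measured 1.59 and 1.54 RPKM in the neck node tumors, 1.19 and 4.72 in the sufficient thymic tumors, and 2.96 and 4.69 in the deficient tumors. The highest value was in a sufficient tumor, and the groups overlapped (log2 fold change 0.66 ± 0.40 as standard error, limma adjusted p = 0.893). Col1a1, the major chain of type I collagen, measured 0.820 and 1.77 RPKM in the neck nodes, 0.619 and 1.76 in the sufficient thymic tumors and 1.63 and 1.97 in the deficient tumors. Its partner Col1a2 measured 0.577 and 0.655, 0.431 and 1.36, and 1.12 and 1.92 RPKM in the same order. Both chains were lowest in sufficient tumor 3 and highest in deficient tumor 2. The ratio of Col1a1 to Col1a2 was between 1.03 and 2.71 in all 6 tumors. Type V collagen, which regulates the width of type I fibrils, was lower by an order of magnitude. Col5a1 ranged from 0.0870 to 0.155 RPKM in the sufficient tumors and was 0.125 and 0.256 in the deficient tumors. Col5a2 ranged from 0.0339 to 0.290 and was 0.234 and 0.340. Neither was separated by genotype. Col5a2 lies 24614 bases from Col3a1 on chromosome 1 with no annotated gene between them, and Col3a1 was 12.6 to 16.3 times as high as Col5a2 in 5 tumors and 46.7 times in sufficient tumor 1.

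In the basement membrane group Nid1, a nidogen that links laminin to type IV collagen, was the member with the clearest separation. It measured 0.381 and 0.926 RPKM in the neck nodes, 1.17 and 1.01 in the sufficient thymic tumors, and 2.97 and 2.91 in the deficient tumors. The deficient tumors were nearly equal and stood above all others, with a mean of 2.94 ± 0.0436 (SD, n = 2), where the sufficient mean was 0.872 ± 0.342 (SD, n = 4). The log2 fold change was 1.09 (95% interval 0.51 to 1.68), with limma p-values of 0.00238 unadjusted and 0.799 adjusted, and an exact permutation p of 0.133, the smallest possible. In each of the 15 alternative fits the unadjusted p stayed under 0.05, and the adjusted p ranged from 0.473 to 1.00. Nid1 lies on chromosome 13 from 13437551 to 13512269 (GRCm38), and 2.06% of its exonic bases are shared with another annotated gene. Its relative Nid2 did not share the pattern, at 1.82 and 3.89, 5.16 and 1.22, and 4.37 and 3.12 RPKM in the same order. Nid2 was highest in sufficient tumor 3, where most members were low. It was 4.19 to 4.78 times as high as Nid1 in sufficient tumors 1 to 3, 1.21 times in sufficient tumor 4, and 1.47 and 1.07 times in the deficient tumors. Part of the Nid2 exons, 8.45%, overlaps Rtraf, and the library kit keeps no strand, so reads of the overlap cannot be assigned.

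The type IV chains followed each other. Col4a1 measured 0.127 and 0.274 RPKM in the neck nodes, 0.106 and 0.293 in the sufficient thymic tumors, and 0.403 and 0.742 in the deficient tumors. Col4a2 measured 0.140 and 0.203, 0.0533 and 0.142, and 0.200 and 0.495. Deficient tumor 2 was highest for both, and the groups were separated for Col4a1 (exact permutation p = 0.133, the smallest possible) but not for Col4a2. The ratio of Col4a1 to Col4a2, whose start windows are printed above, was between 0.912 and 2.06 in the 6 tumors. Lama4, a laminin chain of vessel walls, was the lowest member, at 0.00366 and 0.0199 RPKM in the neck nodes, 0.0140 and 0.0229 in the sufficient thymic tumors and 0.0323 and 0.0771 in the deficient tumors. Lamb1 ranged from 0.0123 to 0.0670 and was 0.0549 and 0.0976. Lamc1, the γ1 chain that would join them in a laminin, was far higher, at 2.20 and 5.03, 1.65 and 4.38, and 2.61 and 2.39 RPKM. Lamc1 exceeded Lamb1 by 24.5 to 245 times, and it was the single tested member with a negative log2 fold change (-0.22, adjusted p = 0.917 from limma). Col15a1 and Col18a1, collagens of the vessel basement membrane, had deficient to sufficient ratios of means of 1.09 and 0.977.

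Type VI collagen was low in all tumors and its groups overlapped. Col6a1 measured 0.134 and 0.158 RPKM in the neck nodes, 0.0914 and 0.401 in the sufficient thymic tumors, and 0.378 and 1.18 in the deficient tumors. Sufficient tumor 4 lay above deficient tumor 1. Col6a2, its neighbor on chromosome 10, measured 0.0796 and 0.0994, 0.0386 and 0.235, and 0.165 and 0.219. Col6a3 measured 0.0341 and 0.0319, 0.0228 and 0.0745, and 0.0564 and 0.0675. Both were highest in sufficient tumor 4. The ratio of Col6a1 to Col6a2 was 1.59 to 2.37 in 5 tumors and 5.40 in deficient tumor 2, so the excess of Col6a1 in that tumor was not shared by its partner chains.

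**Figure D3:**
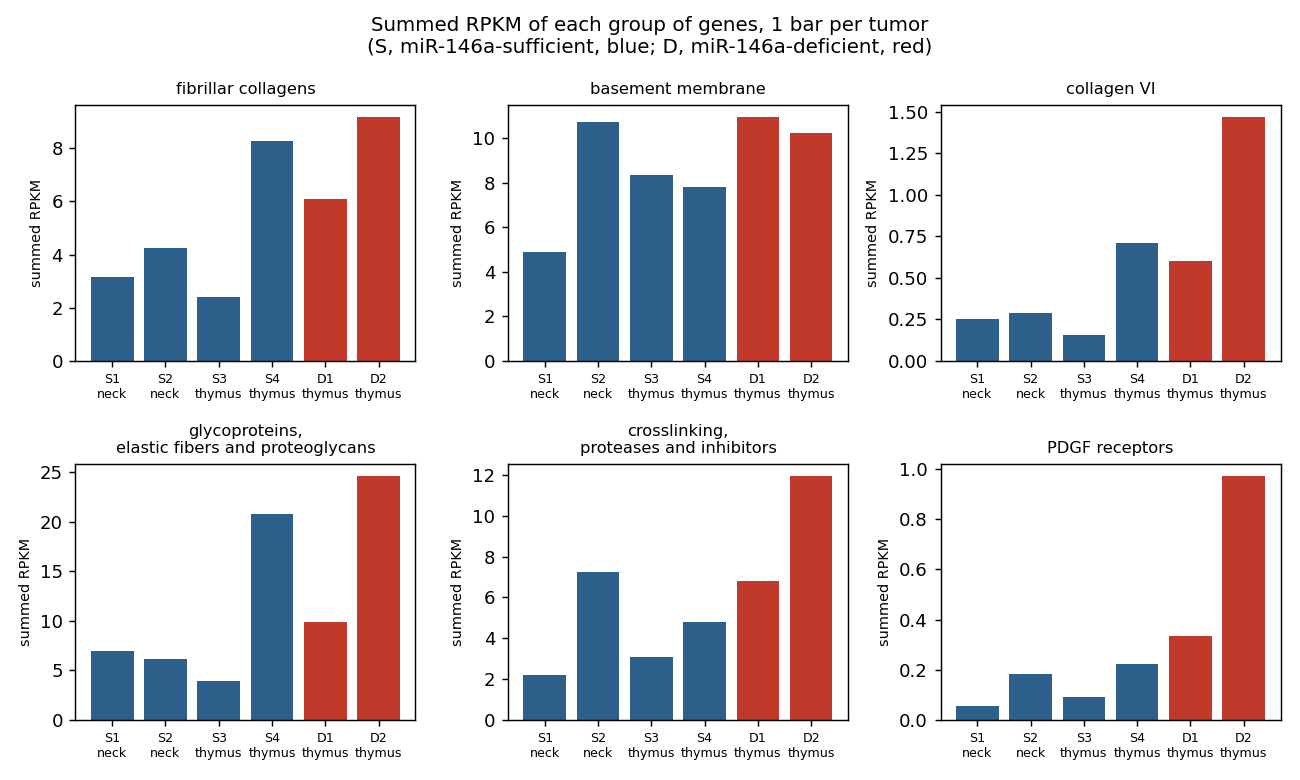
Summed RPKM of each group of genes, 1 bar per tumor, blue for sufficient (S) and red for deficient (D) tumors. In fibrillar collagens, type VI collagen and the glycoprotein group, sufficient tumor 4 lies above deficient tumor 1 and below deficient tumor 2, and in the PDGF receptors both deficient tumors lie above all others at 0.335 and 0.972.

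Among glycoproteins and proteoglycans, Fn1 had the highest mean. Fibronectin is the adhesive glycoprotein to which many cells bind through integrins. It measured 4.28 and 2.16 RPKM in the neck nodes, 0.914 and 9.12 in the sufficient thymic tumors, and 2.19 and 5.50 in the deficient tumors. It differed 9.97-fold between the sufficient thymic tumors, and the log2 fold change between genotypes was 0.10, which became -0.02 after median-ratio scaling. Sparc, a collagen-binding protein of matrix assembly, measured 1.07 and 1.85, 1.33 and 4.99, and 3.17 and 4.89 RPKM, and its groups overlapped. Bgn, the small proteoglycan biglycan, measured 0.375 and 0.662 RPKM in the neck nodes, 0.401 and 0.940 in the sufficient thymic tumors, and 0.978 and 2.22 in the deficient tumors. The groups were separated, narrowly for deficient tumor 1 (log2 fold change 0.68, 95% interval 0.04 to 1.31, adjusted p = 0.893 from limma). Bgn and Timp1 are X-linked, and genotype cannot be told apart from labelled sex. That label is in doubt for deficient tumor 2, which held the highest value of both genes.

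Dcn, the collagen-binding proteoglycan decorin, had the largest log2 fold change of the members and the widest range of RPKM over the 6 tumors. It measured 0.741 and 0.555 RPKM in the neck nodes, 0.758 and 4.54 in the sufficient thymic tumors, and 2.64 and 11.2 in the deficient tumors. Sufficient tumor 4 exceeded deficient tumor 1, and the log2 fold change of 1.56 (95% interval 0.15 to 2.97, adjusted p = 0.893 from limma) was 0.68 without deficient tumor 2. Lum, which encodes the related proteoglycan lumican, lies 46984 bases from Dcn on chromosome 10 with no annotated gene between them. It measured 0.174 and 0.101 RPKM in the neck nodes, 0.137 and 0.307 in the sufficient thymic tumors, and 0.148 and 0.0857 in the deficient tumors. Lum was lowest in the tumor in which Dcn was highest. The ratio of Dcn to Lum was 4.27 to 5.53 in sufficient tumors 1 to 3, 14.8 in sufficient tumor 4, and 17.9 and 131 in the deficient tumors. Postn, periostin of activated fibroblasts, was likewise lowest in deficient tumor 2, at 0.0691 RPKM against 0.104 to 0.350 in the sufficient tumors. Fbn1, fibrillin of elastic fibers, ranged from 0.0981 to 0.267 RPKM in the sufficient tumors and was 0.202 and 0.251 in the deficient tumors, with 20.1% of its exonic bases shared with an overlapping gene. Fbln1, a fibulin, ranged from 0.0457 to 0.515 and was 0.357 and 0.347.

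**Figure D4:**
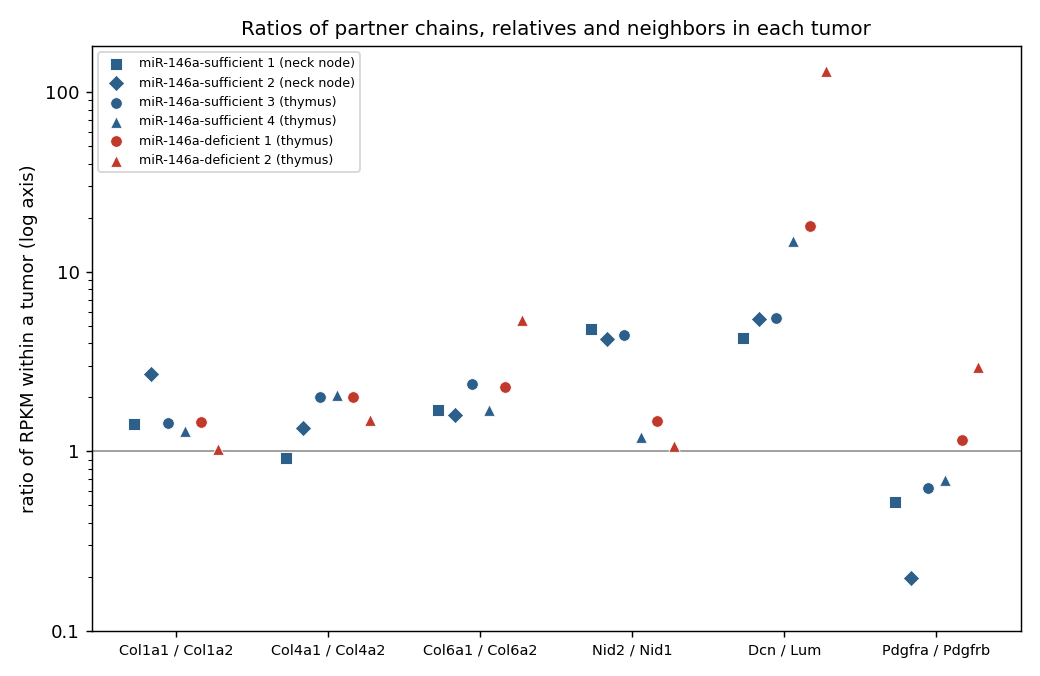
Ratio of RPKM between 6 pairs of genes within each tumor, on a logarithmic axis, with 1 point per tumor. The type I and type IV pairs stay between 0.912 and 2.71, while Dcn to Lum reaches 131 and Pdgfra to Pdgfrb 2.96 in deficient tumor 2 (red triangle), and Nid2 to Nid1 is lowest in sufficient tumor 4 and the deficient tumors.

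The enzymes and inhibitors had positive log2 fold changes in 6 of 6 members, where 63.4% of genes above 0 in any tumor were positive. Of the 3 tested ones, Timp1 would not have passed the filter on the sufficient tumors alone, so its direction was favored by the filter. Mmp14 and Timp2 stayed positive after median-ratio scaling, where 48.0% of tested genes were positive. Of the 3, 0 passed the adjusted threshold. Timp2, an inhibitor of metalloproteases that also takes part in the activation of MMP2, was the most abundant. It measured 1.36 and 1.45 RPKM in the neck nodes, 1.44 and 2.40 in the sufficient thymic tumors, and 2.49 and 5.23 in the deficient tumors. The groups were separated, with deficient tumor 1 close to sufficient tumor 4 (log2 fold change 0.83, 95% interval 0.13 to 1.52, adjusted p = 0.893 from limma). Mmp14, the membrane protease that activates MMP2, measured 0.486 and 5.18, 1.07 and 0.819, and 3.04 and 2.40 RPKM. Its highest value was in the neck node of sufficient tumor 2. Mmp2, which degrades type IV collagen, measured 0.172 and 0.129 RPKM in the neck nodes, 0.104 and 0.117 in the sufficient thymic tumors, and 0.270 and 0.435 in the deficient tumors. It had the narrowest spread of the group among sufficient tumors (mean 0.130 ± 0.0294 SD, n = 4), and both deficient tumors lay above them. In the limma fit without a filter its log2 fold change was 0.26, with p-values of 0.00487 unadjusted and 0.881 adjusted. Timp1 ranged from 0.121 to 1.12 RPKM in the sufficient tumors and was 0.680 and 2.72 in the deficient tumors, and Timp3 ranged from 0 to 0.148 and was 0.0867 and 0.413. Both inhibitors were highest in deficient tumor 2. Timp3 lies inside Syn3 and shares 21.3% of its exonic bases with it, so without strand those reads cannot be assigned. Timp1 lies inside Syn1 and shares no exonic bases with it. Loxl1, a crosslinker of elastic fibers, measured 0.0573 and 0.103 RPKM in the neck nodes, 0.0648 and 0.203 in the sufficient thymic tumors, and 0.215 and 0.735 in the deficient tumors.

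PDGF receptors were low, and Pdgfra had the largest ratio between genotypes. It is one of the genes that the study drew as higher on these same samples, so its direction is not independent evidence. The study tested counts with DESeq and called many more genes than limma did here. The adjusted p from limma therefore does not speak to the calls of the study. Pdgfra measured 0.0186 and 0.0303 RPKM in the neck nodes, 0.0354 and 0.0918 in the sufficient thymic tumors, and 0.180 and 0.727 in the deficient tumors. The means were 0.0440 ± 0.0326 (SD, n = 4) and 0.453 ± 0.387 (SD, n = 2), a ratio of 10.3, and deficient tumor 2 held 4.05 times as much as deficient tumor 1. Both means were under 0.5 RPKM, so the ratio rests on low values. Of the exonic bases of Pdgfra, 6.50% are shared with other annotated genes. The exact permutation p was 0.133, the smallest possible, and in the limma fit without a filter the adjusted p was 0.905. Pdgfrb, the receptor of pericytes, measured 0.0356 and 0.154 RPKM in the neck nodes, 0.0567 and 0.132 in the sufficient thymic tumors, and 0.156 and 0.245 in the deficient tumors. Deficient tumor 1 exceeded sufficient tumor 2 only narrowly. Pdgfra was below Pdgfrb in the 4 sufficient tumors (ratios of 0.197 to 0.696) and above it in both deficient tumors (1.15 and 2.96).

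Lists of other genes of matrix biology were read beside the members, and 0 of their genes passed the adjusted threshold between genotypes. At an unadjusted p under 0.05 from limma, 2.88% of all tested genes were higher, and the share lower was not computed. Of 27 genes of collagen modification and export 15 were tested, and 1 was higher at an unadjusted p under 0.05, Tmem38b, an ion channel of the endoplasmic reticulum (0.196 to 0.618 RPKM in the sufficient and 0.883 and 1.44 in the deficient tumors). The collagen chaperone gene Serpinh1 was at 0.443 to 1.70 RPKM in the sufficient and at 1.36 and 1.18 in the deficient tumors. Of 31 other collagens 3 were tested and 0 had an unadjusted p under 0.05. Col5a3 stood out in sufficient tumor 4 at 19.1 RPKM, against 0.151 to 0.525 in the other 5 tumors. Of 38 other basement membrane and glycoprotein genes 10 were tested and 1 was higher, Igfbp7 (0.436 to 1.19 and then 1.48 and 3.11 RPKM). Of 22 receptors of collagen and laminin 13 were tested and 1 was lower, the integrin chain gene Itga9 (1.67 to 6.32 RPKM in the sufficient and 0.375 and 0.929 in the deficient tumors). Of 23 other metalloproteases and inhibitors 8 were tested and 0 had an unadjusted p under 0.05. Of 9 PDGF and TGF-β ligands 3 were tested and 1 was higher, Tgfb1 (11.4 to 28.9 RPKM and then 32.4 and 34.5). Tmem38b, Igfbp7, Itga9 and Tgfb1 were each separated between the genotypes, with an adjusted p of 0.893 from limma. They were named for their low unadjusted p, which favors separation, so it is no further evidence. Of genes above 0 in any tumor, 8.9% were separated as higher and 1.94% as lower.

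Markers of the cells that could carry matrix RNA did not all follow the order of the matrix genes. Of 16 fibroblast and reticular cell markers, Pdpn and Ccl21a were at 0 in every tumor and Ccl19 in all but sufficient tumor 2, and 11 of 16 stayed under 0.5 RPKM in all tumors. Their summed level was 8.45 to 12.8 RPKM in the sufficient and 5.47 and 9.74 in the deficient tumors. This sum includes Thy1 as a large part, and it was not computed without it. Thy1, which T cells also express, measured 3.71 to 10.5 RPKM in the sufficient and 2.04 and 1.69 in the deficient tumors, while Cxcl13, a chemokine of follicles, measured 0.0740 to 1.78 and then 2.38 and 6.58. The 10 pericyte and smooth muscle markers summed to 1.08 to 2.57 RPKM in the sufficient and to 1.95 and 3.52 in the deficient tumors. The 14 endothelial markers summed to 11.9 to 27.8 and to 18.4 and 32.3, mostly from Pecam1 and Egfl7, with Cdh5 at 0.288 to 0.473 over all tumors. In both lists deficient tumor 2 held the highest sum.

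Of 15 tested macrophage genes 10 were higher in the deficient tumors at an unadjusted p under 0.05 (2.88% of all tested genes), with 0 past the adjusted threshold. Apoe measured 15.3 to 24.8 RPKM in the sufficient and 54.6 and 107 in the deficient tumors (adjusted p = 0.212 from limma), and the summed list was 156 to 323 and then 288 and 401, so that the sums overlapped. Neutrophil markers summed to 1655 and 1702 RPKM in the neck nodes, 239 and 208 in the sufficient thymic tumors and 110 and 280 in the deficient tumors, and 0 of 12 tested had an unadjusted p under 0.05 between genotypes. T cell markers summed to 23.1 to 76.2 and then 16.3 and 20.1, and 2 of 10 were lower, Cd8b1 and Cd3g. The share of all tested genes that were lower was not computed, so this count has no reference. Of the thymic epithelium, salivary gland, and skeletal muscle and adipocyte lists, 3, 5 and 4 genes were tested, and 0 had an unadjusted p under 0.05. Of 10 tested B-cell genes 1 was higher, Cd22 (41.1 to 69.9 and then 86.7 and 105 RPKM). The part of these cell types in the levels of the matrix genes was not tested.

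**Figure D5:**
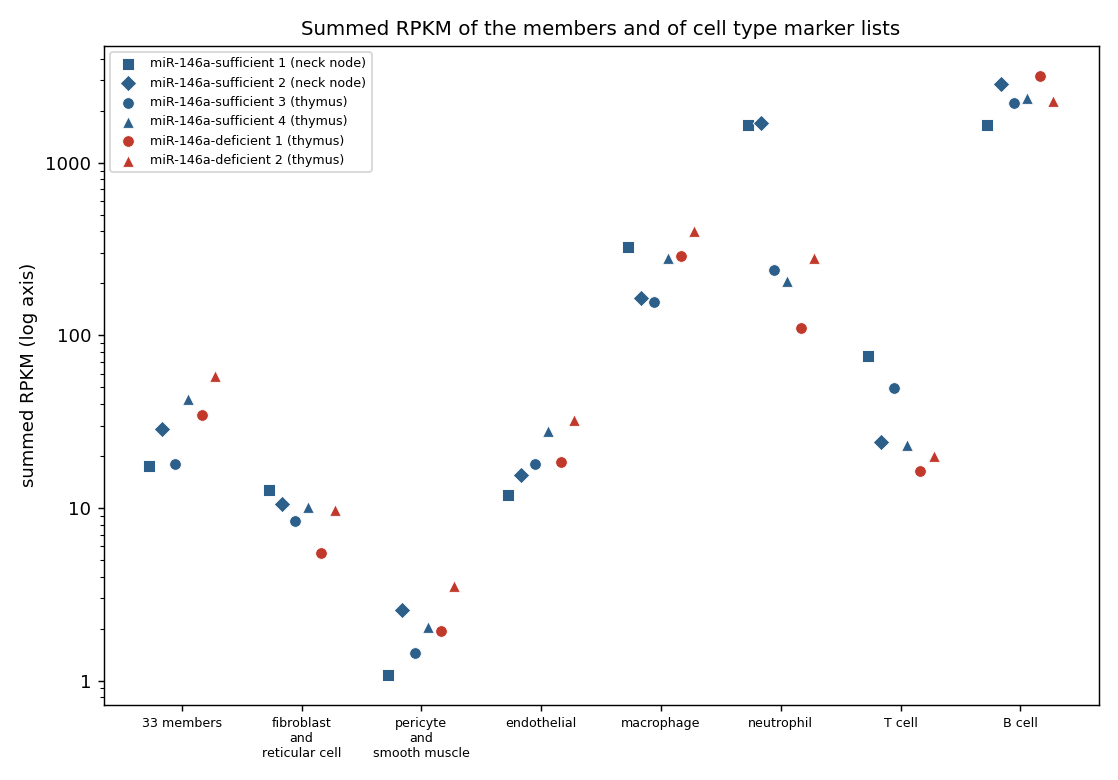
Summed RPKM of the 33 members and of 7 cell type marker lists, 1 point per tumor, on a logarithmic axis. The member sum and the endothelial and pericyte sums are highest in deficient tumor 2 (red triangle). The endothelial sum comes mostly from Pecam1 and Egfl7, and 10 of its 14 genes stayed under 0.5 RPKM in all tumors. The fibroblast sum is not highest in that tumor, but it includes Thy1, which T cells also express, and a sum without Thy1 was not computed. The members together hold 17.5 to 58.3 RPKM against 1649 to 3183 for the B-cell list.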

How the data were processed

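Tumor RNA was prepared with an unstranded kit and sequenced as single-end reads. The authors used STAR 2.3.0 for alignment to GRCm38 (mm10), HTSeq 0.5.4p3 for counts of Ensembl genes, and DESeq for tests (version 1.12.1 in the submitters' processing notes). The deposited table, whose header names no unit, holds values read as RPKM per gene and tumor, and how the authors derived the RPKM values from counts is not given in the sources used here. It holds no counts, so no count model, counting interval or floor was computed.

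The members and lists were chosen with earlier results of these data known. Genes that reached 0.5 RPKM in 2 or more of the tumors fitted were tested as log2(RPKM + 1) with limma 3.58.1 (R 4.3.3, trend, Benjamini-Hochberg adjustment over all tested genes, threshold 0.05). Genotype was fitted over all 6 tumors, and over 3 groups (neck node sufficient, thymic sufficient, deficient), and site over the 4 sufficient tumors. Single genes were compared by exact two-sided permutation tests (SciPy 1.17.1). Scripts were tested on simulated data. All members are accounted for. Values in every tumor are given for tested members with an unadjusted p under 0.05, for the most abundant of each group and for most partner chains, and ranges for others, and up to 3 genes of lowest p may be named per other list. Serpinh1, Col5a3, Cdh5, Foxn1 and the fibroblast markers at 0 were named after their values were seen. Alternatives changed the filter, pseudocount, scaling, prior, tumors included and block. Gene positions and overlaps are from GENCODE M21, promoter windows from RefSeq. Members without a window were Col1a1, Col5a2, Nid2, Lama4, Lamc1, Fn1, Dcn, Lum, Loxl1, Mmp2 and Pdgfrb.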

Additional observations from a re-analysis of the deposited data

Results flagged for a closer look

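Among the 4 miR-146a-sufficient tumors, 40 results (33 members and 7 sums) were examined for a tumor that stood apart, by the gap to its nearest neighbor as a share of the whole range on the log2(RPKM + 1) scale. Chance alone would flag about 1 in 20. In 4 members 1 tumor stood apart, and in each it was sufficient tumor 4. Dcn was at 4.54 RPKM there against 0.555 to 0.758 in the other sufficient tumors. Timp2 was at 2.40 against 1.36 to 1.45, Fbn1 at 0.267 against 0.0981 to 0.121, and Lamb1 at 0.0670 against 0.0123 to 0.0205. Without sufficient tumor 4, 8 of the 13 tested members were higher in the deficient tumors at an unadjusted p under 0.05 (2.97% of tested genes), and 0 passed the adjusted threshold of limma, with a lowest adjusted p of 0.661. With no tumor left out 4 were, and leaving out a tumor that is high among the sufficient ones favors a rise. Without sufficient tumor 1, sufficient tumor 3 or deficient tumor 2 the count was 1.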

How the results depend on the processing

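No member passed the adjusted threshold of limma in any of the 3 comparisons under any alternative. The median log2 fold change of the 33 members, deficient against sufficient, was positive under every alternative; it was 0.83 with a pseudocount of 0.1 and 0.058 with 5, as the pseudocount sets how much low genes can move, and 0.14 (without deficient tumor 2) to 0.40 (without deficient tumor 1) when each tumor was left out. Against the sufficient thymic tumors it was 0.28, with 0.64 at a pseudocount of 0.1, 0.067 at 5, 0.16 after median-ratio scaling, and 0.076 (without sufficient tumor 3; 0.10 without deficient tumor 2) to 0.38 with tumors left out. For site it was -0.27 with a pseudocount of 0.1 and -0.19 (without sufficient tumor 3) to 0.060 (without sufficient tumor 4) with tumors left out. With tumors left out, the number of members above all opposing tumors ranged from 9 to 21 in the contrast over all tumors. It was 21 without sufficient tumor 4 (14.2% of genes above 0 in any tumor) and 19 without deficient tumor 1 (36.8%). Within the thymus it was 12 in all tumors and 13 to 30 with 1 left out (30 without sufficient tumor 4, 21 without deficient tumor 1). For site it was 1 in all tumors and 1 to 14 with 1 left out (14 without sufficient tumor 4, 9 without sufficient tumor 1, 2 without sufficient tumor 3). Fewer tumors let more genes of any kind separate, and the shares of all genes were not computed for these 2 contrasts. Their counts are therefore not results about the members. Fn1, not called in any setting, turned negative after median-ratio scaling (-0.018 over all tumors, -0.11 in the thymus), quantile normalization (-0.023 and -0.14), and a pseudocount of 5 in the thymus (-0.072). Leaving out tumors gave ranges across 0 for Fn1 (-0.41 to 0.62 over all tumors, -1.15 to 1.25 in the thymus) and, in the thymus, for Col3a1 (-0.27 to 1.12), Sparc (-0.27 to 1.09), Nid2 (-0.39 to 1.08), Lamc1 (-0.62 to 0.40) and Timp1 (-0.028 to 1.12).

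Of all genes, 4 to 9 passed between genotypes with tumors left out, against 8 in all tumors (4 without sufficient tumor 3, 5 without either deficient tumor). In the thymus 3 passed, with 0 without a filter, 1 after median-ratio scaling, 1 after quantile normalization and 0 to 7 with tumors left out (0 without sufficient tumor 3, 7 without sufficient tumor 4, 5 without either deficient tumor). For site 19 passed, with 0 without a filter, 11 after quantile normalization, 2 in the fit over 6 tumors and 11 to 67 with tumors left out (67 without sufficient tumor 2, 32 without sufficient tumor 1, 11 without sufficient tumor 4). The cause of these differences was not tested. With the replicate number as a block, which leaves the 2 neck node and the 2 deficient tumors, 1 gene passed and 0 members (lowest adjusted p 0.473 from limma). The labels do not say that tumors of the same number are paired, and the deviations of tumors 1 and 2 in the 2 groups had a correlation of 0.15 across 12751 genes, which are not independent. Depth is unknown, so the precision of members under 0.5 RPKM rests on the spread between 4 and 2 tumors. Where a fit leaves 1 deficient tumor, it is assumed to vary like the others.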
